A study of Mus musculus with 30 samples.

Results

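The genes described here encode 41 enzymes of central carbon metabolism: 15 of glycolysis, 17 of the tricarboxylic acid (TCA) cycle and the entry of pyruvate into it, and 9 of serine, one-carbon and asparagine synthesis. They are a list by name, out of 21883 protein-coding genes of the mouse gene table. The rule that names them uses no measured value, but the list was drawn up with earlier results of these data known. A gene was counted as having a peak if a peak summit lay within 1 kb of its annotated start or end in RefSeq GRCm38.p6, the assembly also known as mm10. Peaks came from chromatin immunoprecipitation sequencing (ChIP-seq), in which DNA bound by a protein is pulled down with an antibody and sequenced. All libraries came from WT-MA9, a mouse acute myeloid leukaemia line that carries the leukaemia fusion gene MLL-AF9 with GFP on the retroviral vector pMSCV. The fusion is present in every group, and the sources used here do not say whether the line is a single clone.

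Menin is an adaptor of the MLL1 and MLL2 histone methyltransferase complexes, and UTX is a histone demethylase found in the MLL3 and MLL4 complexes. The 4 groups were Menin ChIP in DMSO (the vehicle), Menin ChIP in MI-503, UTX ChIP in DMSO and UTX ChIP in MI-503. MI-503 is an inhibitor of the Menin-MLL contact, and harvest followed 4 days of treatment in medium with IL6, IL3 and SCF. The sources used here do not state the MI-503 concentration. Each group had 1 library, so nothing below has a replicate check and no p-value was computed. Peak lists hold no expression values, so the leukaemia label was not checked against marker genes.

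The lists held 11195 peaks for Menin in DMSO, 8 for Menin in MI-503, 217 for UTX in DMSO and 14231 for UTX in MI-503. Absolute depth is unknown. The values in the lists put the Menin MI-503 library at 1.35 or more times the reads of its input, and the UTX DMSO library at 1.14 or more times. By the same values the other 2 libraries had at most as many reads as their inputs. This assumes that the peak caller MACS2 scaled down the larger of library and input, its default. It also takes 1 vehicle input per antibody from the names of the peaks. The Menin MI-503 value rests on only 8 peaks. Under these assumptions the short list of each antibody came from the more deeply sequenced library. Read counts were not checked.

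Glycolysis splits glucose into pyruvate, which lactate dehydrogenase can turn into lactate. The pyruvate dehydrogenase complex turns pyruvate into acetyl-CoA, which the TCA cycle oxidises while it supplies citrate, oxoglutarate and fumarate to other reactions. A side branch of glycolysis makes serine, from which the folate enzymes take one-carbon units for purines, thymidylate and methylation. Asparagine synthetase makes asparagine from aspartate, a product of the cycle. Leukaemia cells draw on all of these routes to grow. Several of the metabolites touch chromatin directly, since oxoglutarate is a substrate of UTX and acetyl-CoA of the histone acetyltransferases.

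Sequences just before the start are shown for 8 members, each as the 250 bases that end 1 base before the annotated start, 5′ to 3′ on the gene's strand, from RefSeq GRCm38.p6. Capitals mark CCAAT or its reverse ATTGG (the NF-Y box), CACGTG (the E-box) and TGATGNAA (the core of the ATF4 element). The set holds members with the highest peaks of their pathway, and Phgdh and Shmt2, which had no peak. Ldha and Asns were added after their values were seen, for their E-boxes and their ATF4 element. Pdp1 had the highest peaks of all members and has no entry in the promoter table.
Adpgk, chr9:59291322-59291571, plus strand, inside both its Menin DMSO peak and, for the most part, its UTX MI-503 peak: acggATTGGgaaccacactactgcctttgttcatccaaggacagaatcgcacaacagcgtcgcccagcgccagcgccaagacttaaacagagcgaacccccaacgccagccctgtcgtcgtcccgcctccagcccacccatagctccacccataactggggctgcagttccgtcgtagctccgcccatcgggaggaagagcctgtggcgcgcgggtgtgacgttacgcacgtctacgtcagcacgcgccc
Aco1, chr4:40143015-40143264, plus strand, inside both its peaks: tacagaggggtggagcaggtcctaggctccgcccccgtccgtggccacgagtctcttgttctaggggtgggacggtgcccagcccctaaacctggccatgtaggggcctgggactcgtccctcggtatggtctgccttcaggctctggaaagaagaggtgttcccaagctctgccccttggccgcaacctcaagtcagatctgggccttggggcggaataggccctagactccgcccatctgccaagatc
Pdhb, chr14:8172993-8173242, minus strand, inside both its peaks: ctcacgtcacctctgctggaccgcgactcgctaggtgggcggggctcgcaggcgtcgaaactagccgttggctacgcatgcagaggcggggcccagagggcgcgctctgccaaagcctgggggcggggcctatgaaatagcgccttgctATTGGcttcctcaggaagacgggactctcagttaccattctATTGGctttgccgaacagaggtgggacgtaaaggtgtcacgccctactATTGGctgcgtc
Mthfd1l, chr10:3972825-3973074, plus strand, before both its peaks, which lay downstream of the start: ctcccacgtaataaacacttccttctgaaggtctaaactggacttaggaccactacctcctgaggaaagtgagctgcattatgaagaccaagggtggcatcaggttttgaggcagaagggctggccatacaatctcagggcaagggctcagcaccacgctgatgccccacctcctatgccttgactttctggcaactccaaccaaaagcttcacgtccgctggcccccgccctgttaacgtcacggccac
Ldha, chr7:46845554-46845803, plus strand, at a start inside the annotated gene: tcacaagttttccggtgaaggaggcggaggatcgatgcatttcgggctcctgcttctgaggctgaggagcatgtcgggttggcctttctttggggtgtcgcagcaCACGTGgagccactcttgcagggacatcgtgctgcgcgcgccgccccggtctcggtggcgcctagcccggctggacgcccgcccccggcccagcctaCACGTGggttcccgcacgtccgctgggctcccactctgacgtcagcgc
Asns, chr6:7693210-7693459, minus strand, with summits 2 bp downstream (Menin) and 7 bp upstream (UTX) of the start: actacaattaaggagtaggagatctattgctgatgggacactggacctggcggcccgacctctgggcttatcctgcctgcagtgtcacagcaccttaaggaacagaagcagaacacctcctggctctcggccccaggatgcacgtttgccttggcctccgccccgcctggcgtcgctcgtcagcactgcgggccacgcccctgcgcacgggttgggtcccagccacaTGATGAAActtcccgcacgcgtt
Phgdh, chr3:98339970-98340219, minus strand, no peak: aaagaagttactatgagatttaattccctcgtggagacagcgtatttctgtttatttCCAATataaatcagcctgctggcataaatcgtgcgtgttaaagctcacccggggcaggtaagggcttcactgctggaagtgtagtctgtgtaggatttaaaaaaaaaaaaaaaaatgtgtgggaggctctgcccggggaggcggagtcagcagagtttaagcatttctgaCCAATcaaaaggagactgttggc
Shmt2, chr10:127522445-127522694, minus strand, no peak: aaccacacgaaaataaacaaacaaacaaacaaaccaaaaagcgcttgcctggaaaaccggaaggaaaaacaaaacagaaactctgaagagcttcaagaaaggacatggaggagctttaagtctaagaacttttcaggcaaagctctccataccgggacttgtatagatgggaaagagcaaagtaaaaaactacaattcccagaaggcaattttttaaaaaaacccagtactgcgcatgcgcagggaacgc
With negative positions counted back from the start, the Pdhb stretch holds ATTGG 3 times, from −101, −60 and −12. The Ldha stretch holds CACGTG from −145 and −48, and the Asns stretch TGATGAAA from −23. Phgdh carries CCAAT from −193 and −23, and no peak of any list lay near it.

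Menin in DMSO had a peak at 30 of the 41 enzyme genes (73.2%), against 31.2% of all protein-coding genes. UTX in MI-503 had one at 33 of 41 (80.5%), against 36.5% of all. All 30 Menin genes were among the 33 UTX genes, and 28.4% of all protein-coding genes had a peak in both of these lists. No member had a Menin DMSO peak alone. Gpi1, Dlat and Idh3b had a UTX MI-503 peak alone, and 8 members had neither: Hk1, Aldoa, Ldha, Ldhb, Idh2, Suclg1, Phgdh and Shmt2. A peak in at least 1 of these lists was thus present at 33 of 41 members, against 39.3% of all genes.

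No member had a peak in Menin MI-503 or in UTX DMSO, lists in which 0.00914% and 0.777% of all genes had one. With shares that low, 0 of 41 is near what those lists gave over all genes, and nothing about these enzymes is read from it. The nearest summits in the short lists lay 2493224 bp from Asns in Menin MI-503 and 108224 bp from Psph in UTX DMSO. The long Menin list and the long UTX list came from cells under different treatments, so a gene with a peak in both is not shown to have carried both proteins in the same cells.

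The 3 pathways were close to one another. Menin DMSO peaks were present at 10 of 15 glycolysis genes (66.7%), 13 of 17 TCA and pyruvate entry genes (76.5%) and 7 of 9 serine, one-carbon and asparagine genes (77.8%). UTX MI-503 peaks were present at 11 of 15 (73.3%), 15 of 17 (88.2%) and 7 of 9 (77.8%). Each of these shares was above that of all protein-coding genes. One gene more or less moves a share of 9 genes by as much as the widest gap between the pathways for Menin, so no order of the pathways is given.

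**Figure D1:**
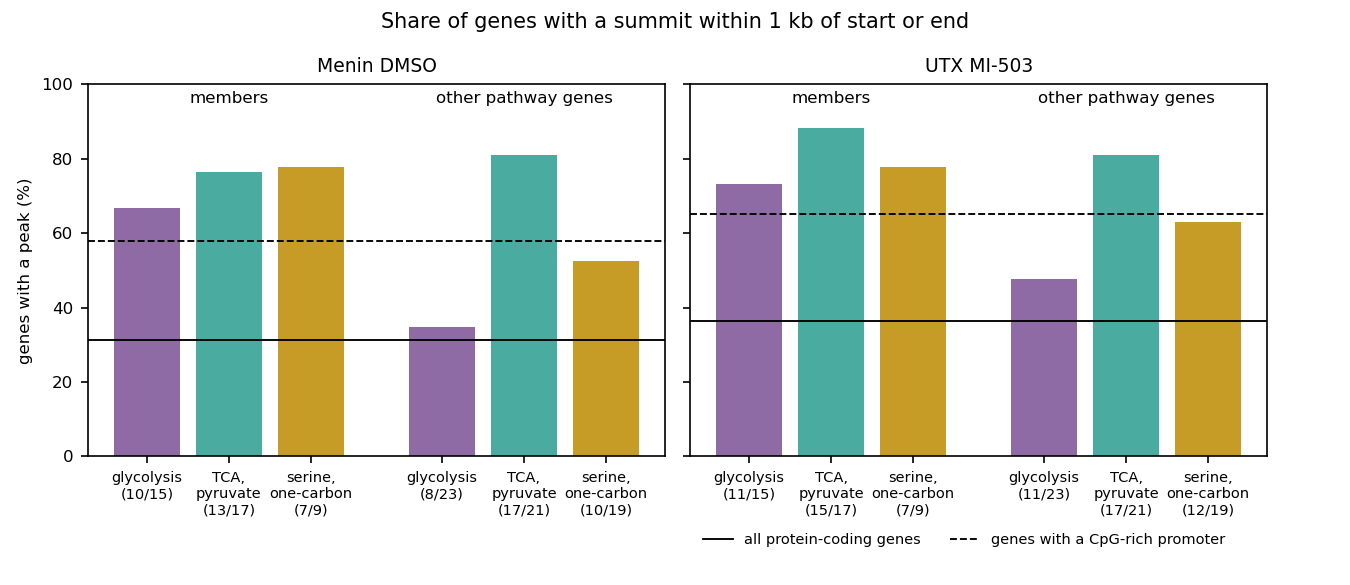
Share of genes (%, vertical axis) with a summit within 1 kb of the start or end, for Menin DMSO (left panel) and UTX MI-503 (right panel), with the 41 members on the left of each panel and the 63 other pathway genes on the right, and counts under the bars. The solid line is the share over all protein-coding genes (31.2% and 36.5%) and the dashed line that over genes with a CpG-rich promoter (57.8% and 65.1%); all members' bars lie above both lines.

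Peak height is given as fold enrichment, the authors' own value. It is the fragment pileup at the summit plus 1, over the local background plus 1. At several members, Tpi1, Gapdh, Eno1 and Pkm among them, the UTX MI-503 background was 0.827, which is below the added 1. Intervals in brackets are 95% Poisson intervals of the fragments at the summit and cover counting error only. Among members with a peak, the median Menin DMSO fold was 7.04 (3.94 to 37.9), against 7.34 over all protein-coding genes with such a peak, and 14 of 30 members were above that median. The median UTX MI-503 fold was 11.4 (5.66 to 31.7), against 10.1 over all, with 20 of 33 members above it. So the listed genes had a peak more often than genes at large. The heights of their peaks were near the middle of the range. Because the list was drawn up with earlier results of these data known, the higher share describes this list and was not tested. The 63 other genes of these pathways, counted below, had lower shares, 55.6% for Menin and 63.5% for UTX. Fragments at the summit numbered 17 to 162 for Menin (median 37.5) and 10 to 57 for UTX (median 22). Folds of the 2 antibodies come from different antibodies, inputs and treatments, and are set side by side without a comparison of levels.

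In glycolysis, Adpgk stood apart. It encodes the ADP-dependent glucokinase, which phosphorylates glucose at the expense of ADP. Its Menin DMSO peak, chr9:59291192-59291813, had a fold of 32.1 (27.4 to 37.4) from 162 fragments and ranked within the top 0.125% of that list by −log10 q. Its UTX MI-503 peak had a fold of 23.8 (18 to 31.0) from 53 fragments. The next highest Menin fold in the pathway was 9.33, so Adpgk lay far above the other glycolysis genes in that list. In the UTX list it was first by a small margin, and its interval overlapped those of the next genes.

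The hexokinases trap glucose in the cell. Hk2, the inducible form, had folds of 9.0 (6.47 to 12.2) for Menin and 18.8 (13.5 to 25.7) for UTX. Hk1, the housekeeping form, had no summit within 1 kb of its outer boundaries in any list, but had peaks of both long lists at a start inside the gene, given below. Gpi1, the isomerase that follows, had a UTX MI-503 fold of 8.43 (4.95 to 13.6) from 15 fragments and no Menin DMSO peak. Its nearest Menin summit lay 3813 bp from the gene.

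Phosphofructokinase makes the committing step, and all 3 of its subunit genes had both peaks. Pfkl had 5.77 for Menin and 6.53 for UTX, each the higher of a pair of peaks in that list. Pfkm had 4.67 for Menin and 5.66 for UTX, and Pfkp had 8.36 and 7.04. These are the liver, muscle and platelet forms; their intervals overlapped in each list, and their UTX folds were among the lowest of the members. Aldoa, the aldolase of most tissues, had no summit within 1 kb of an outer boundary, its nearest being 1377 bp away for Menin and 1814 bp for UTX.

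The later enzymes of glycolysis, which return ATP and reduce NAD, all had both peaks up to pyruvate kinase. Tpi1, the triose phosphate isomerase, had folds of 6.62 for Menin and 6.02 for UTX. Gapdh, the dehydrogenase that reduces NAD, had 9.06 (6.66 to 12.1) and 18.1 (12.5 to 25.3). Pgam1, the phosphoglycerate mutase, had 9.33 (7.05 to 12.1) and 21.8 (15.8 to 29.4), the highest UTX value of glycolysis after Adpgk. Eno1, the enolase, had 5.49 and 14.8, and Pkm, the pyruvate kinase, had 6.78 and 19.2 (13.4 to 26.5). Their Menin folds were spread narrowly from 5.49 to 9.33, whereas their UTX folds ran from 6.02 at Tpi1 to 21.8 at Pgam1.

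Lactate dehydrogenase, the enzyme beyond pyruvate kinase, was the exception. Ldha and Ldhb, its muscle and heart subunits, had no summit within 1 kb of an outer boundary. Ldha had peaks at a start inside the annotated gene, described below with Hk1 and Aldoa. At Ldhb the nearest summits lay 103116 bp away in Menin DMSO and 63572 bp away in UTX MI-503, so no called peak was close to the gene.

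In pyruvate entry, Pdp1 had the highest peaks of all 41 members in both lists. It encodes the catalytic subunit of the phosphatase that switches pyruvate dehydrogenase on. Its Menin DMSO peak, chr4:11966244-11966875, had a fold of 37.9 (32.0 to 44.6) from 142 fragments and was in the top 0.152% of the list. Its UTX MI-503 peak had a fold of 31.7 (24.2 to 41) from 57 fragments, in the top 0.949%. The boundary of a long non-coding RNA gene, 1700123M08Rik, lay 36 bp from the Menin summit, so the peak cannot be assigned to either gene from position alone.

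The subunits of pyruvate dehydrogenase itself differed. Pdhb, of its first component, had folds of 9.25 (6.73 to 12.4) for Menin and 20.8 (14.8 to 28.5) for UTX over the stretch with 3 ATTGG boxes. Dld, the dehydrogenase shared with the oxoglutarate complex, had one of the lower Menin folds at 4.92 (3.23 to 7.23) and a UTX fold of 17.8 (12.5 to 24.7). Dlat, the acetyltransferase core, had its nearest Menin summit 30768 bp away and a UTX fold of 6.71 (3.72 to 11.3) from 12 fragments.

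At the front of the cycle, all members but Idh2 had at least a UTX peak within 1 kb of an outer boundary. Cs, the citrate synthase, had folds of 6.50 for Menin and 11.3 for UTX. Aco1, the cytosolic aconitase that also acts as an iron-regulatory protein, had 18.4 (14.6 to 22.9) from 79 fragments for Menin and 12.2 (7.85 to 18.2) from 22 for UTX. Aco1 is thus a high Menin gene with a UTX fold close to the members' median. The cytosolic Idh1 had 7.39 and 7.63.

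The NAD-dependent isocitrate dehydrogenase has several subunits. Its catalytic subunit gene Idh3a had both peaks, at 10.3 (7.52 to 13.7) for Menin and 12.1 (7.88 to 18) for UTX. Its partner Idh3b had a UTX peak alone, at 6.36 (3.6 to 10.6) from 13 fragments, and its nearest Menin summit lay 4956 bp from the gene. The mitochondrial NADP-dependent Idh2 had neither, with nearest summits 15900 bp away for Menin and 3995 bp for UTX. Idh1 and Idh2, which are mutated in some human leukaemias, therefore differed by the 1 kb rule at outer boundaries. The cytosolic gene had both peaks and the mitochondrial gene none. However, Idh2 had a UTX peak of 6.46 placed 737 bp downstream of a start inside the gene. The Menin summit of Idh1 lay 12 bp from the boundary of Pikfyve, so that peak cannot be assigned to Idh1 by position.

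The oxoglutarate dehydrogenase complex had both peaks at each of its genes. Ogdh, its first component, had folds of 13.3 (10.2 to 17.1) and 15.9 (10.7 to 22.7), with a Menin fold behind only Pdp1 and Aco1 in this pathway. Dlst, its succinyltransferase core, had the lowest Menin fold of all members, 3.94 (2.45 to 6.04) from 19 fragments, beside a UTX fold of 11.4 (7.16 to 17.3). The remaining steps to oxaloacetate had modest folds. Suclg2, the GTP-forming subunit of succinyl-CoA ligase, had 4.77 and 6.57, and its partner Suclg1, the shared alpha subunit, had neither peak. Fh1, the fumarase, had 7.30 and 9.30. Malate dehydrogenase had both peaks in its cytosolic form Mdh1, at 5.38 and 7.59, and in its mitochondrial form Mdh2, at 8.20 and 11.1.

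In serine synthesis, the first enzyme and the later ones parted. Phgdh, which makes the committing step, had no peak, and the nearest summits lay 299707 bp away for Menin and 228846 bp for UTX. Psat1, the aminotransferase of the second step, had folds of 5.26 (3.31 to 7.99) and 6.94 (4.00 to 11.3). Psph, the phosphatase of the third, had 6.53 (4.65 to 8.94) and 14.8 (9.98 to 21.1).

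The folate enzymes that take a one-carbon unit from serine work in the cytosol and in mitochondria. Of the serine hydroxymethyltransferases, the cytosolic Shmt1 had both peaks, at 8.32 (6.18 to 11) and 16.1 (11.1 to 22.5). The mitochondrial Shmt2 had none, with a UTX summit 7943 bp away as the nearest. Mthfd1l, the mitochondrial formate-releasing synthetase, had the highest folds of this pathway in both lists, 14.3 (11.4 to 17.6) for Menin and 19.2 (13.4 to 26.5) for UTX. Mthfd2, the mitochondrial dehydrogenase, had 5.04 and 11.3. Mthfd1, the trifunctional cytosolic enzyme, had its highest Menin peak at the end of the gene, with a fold of 5.06, beside one of 4.8 at a start, and a UTX fold of 9.17 at the start. Asns had 4.62 (3.17 to 6.53) for Menin and 14.2 (9.40 to 20.7) for UTX. Apart from Mthfd1l and Shmt1, Menin folds in this pathway lay below the median of 7.34 over all genes with a peak, and 5 of 7 UTX folds lay above the median of 10.1.

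**Figure D2:**
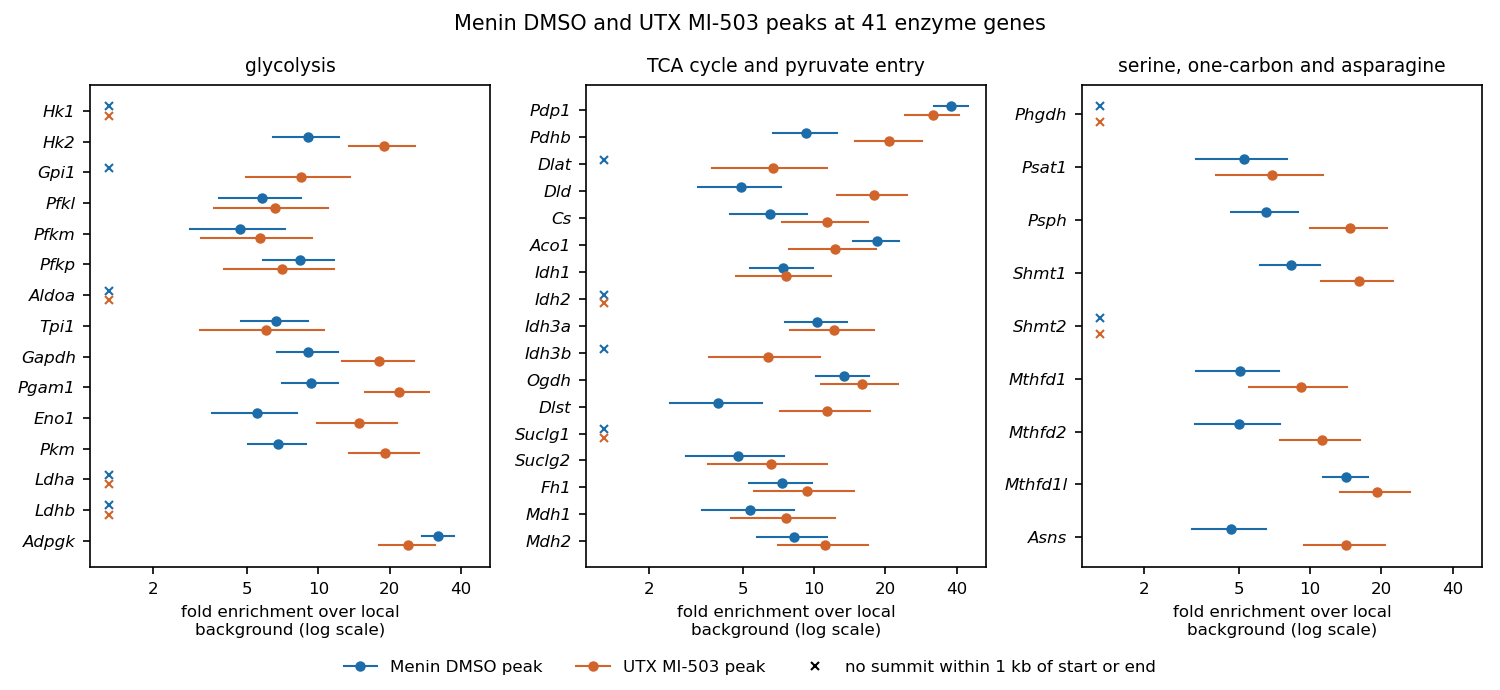
Fold enrichment over local background (log scale, horizontal axis) of the highest peak of each member, for Menin DMSO (blue) and UTX MI-503 (orange), one panel per pathway; bars are 95% Poisson intervals of the fragments at the summit and crosses mark members with no summit within 1 kb. Pdp1 and Adpgk lie at the far right, at Menin folds of 37.9 and 32.1, and 8 members have 2 crosses.

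At each of the 30 members with both peaks, a Menin peak of the DMSO list overlapped a UTX peak of the MI-503 list by at least 1 bp, and at 24 they shared at least 50% of each peak. Where a gene had several peaks in a list, the pair that shared most bases was taken, which need not be the highest peaks. The paired summits lay a median of 39.5 bp apart, from 1 bp at Aco1 to 450 bp at Ogdh, and 23 of the 30 pairs lay within 100 bp. Suclg2 had the smallest overlap, with 19 bp shared and summits 278 bp apart. For most members, then, the peaks of both lists covered the same short stretch. The same counts over all genes with both peaks are not given here, so the overlap is not read as a trait of these enzymes.

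Peak heights of the 2 lists went together in part. Over the 30 members, Spearman's rho between the folds of each list's highest peak was 0.587, and it was 0.492 without Adpgk and Pdp1. The highest peaks of the lists shared no base at Pfkm and Mthfd1, with summits 513 bp and 63908 bp apart. The rho is given as a description, since at most members the folds share genomic sites, base composition and mappability. The UTX fold was the higher number at 25 members. The Menin fold was higher at Adpgk, Pdp1, Aco1, Pfkp and Tpi1. UTX folds also ran higher over all genes with a peak, with a median of 10.1 against 7.34 for Menin. The same count over all genes with both peaks is not given here, so the 25 is not read as a trait of these enzymes. Dld, Dlst and Asns were at the other end, with low Menin folds of 4.92, 3.94 and 4.62 beside UTX folds of 17.8, 11.4 and 14.2. Their fragments at the summit numbered 24, 19 and 30 for Menin and 34, 20 and 25 for UTX. Their local backgrounds were 4.08, 4.08 and 5.71 for Menin and 0.964, 0.845 and 0.827 for UTX. At these genes the folds differed more through the backgrounds than through the fragments, so they do not compare levels of the proteins.

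**Figure D3:**
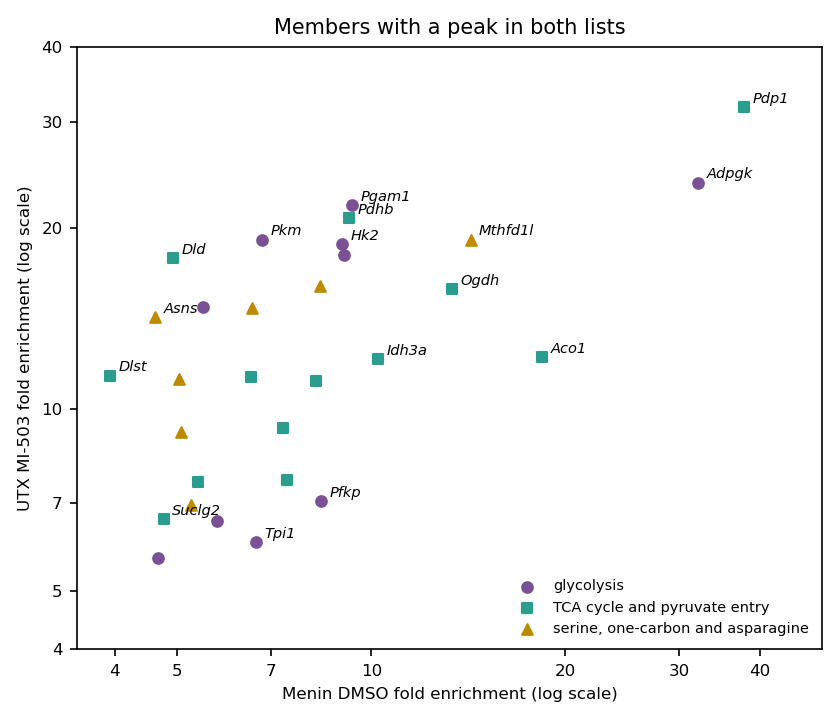
Menin DMSO fold (horizontal axis) against UTX MI-503 fold (vertical axis) for the 30 members with both peaks, with symbols by pathway. Both are fold enrichment over local background of the highest peak in each list, on log scales. Pdp1 and Adpgk are at the upper right, Aco1 is far to the right at a middle UTX fold, and Dld, Dlst and Asns are at the left with UTX folds above 11.

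Most of the members' highest summits lay at a start. The 1 kb rule admits only summits near a start or an end. The same counts over all genes with a peak are not given here, so nothing particular to these enzymes is read from them. The strand was known for 28 of the 30 Menin members, and 27 of their highest summits were at a start and 1, that of Mthfd1, at the gene's end. Measured from the nearest annotated start, these summits lay a median of 91 bp away on either side, 24 of them within 250 bp, with 15 upstream and 12 downstream. For UTX, all 31 members with a known strand had the highest summit at a start, a median of 109 bp away, 27 within 250 bp. The far ones were the same genes in part: Mthfd1l at 713 bp downstream for Menin and 738 bp for UTX, Pfkl at 476 bp and 495 bp, and Pfkm at 891 bp and 378 bp. At Mthfd1l this placed the peaks past the printed stretch, beyond the first bases of the gene.

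**Figure D4:**
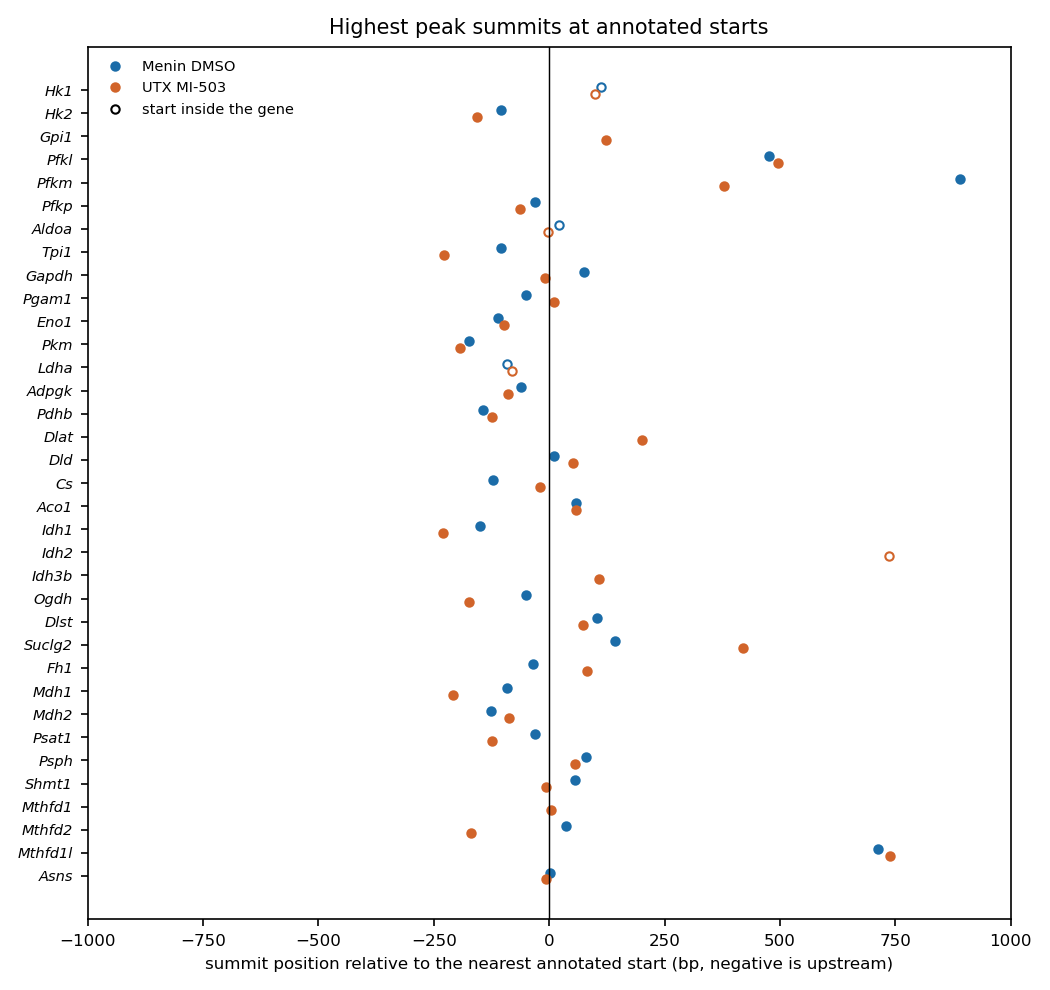
Distance of the highest summit from the nearest annotated start (bp, negative is upstream) for each member whose strand is known, for Menin DMSO (blue) and UTX MI-503 (orange); open circles are peaks at a start inside the annotated gene, which the 1 kb rule does not count. Most points lie within 250 bp of the start, and Mthfd1l, Pfkl and Pfkm lie well downstream.

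Outer boundaries missed starts that lie inside a gene, and 4 members without a counted peak had one there. This was examined after the data were seen. Hk1 had peaks 112 bp and 99 bp downstream of an inner start, with folds of 10.9 for Menin and 13.6 for UTX. Aldoa had them 22 bp downstream and 2 bp upstream, with folds of 8.18 and 13.1. Ldha had them 91 bp and 81 bp upstream, with folds of 4.83 and 7.11, over the printed stretch with its E-boxes. Idh2 had a UTX peak alone, 737 bp downstream of an inner start, with a fold of 6.46. Counting such starts gave 33 of 41 members for Menin, against 33.6% of all genes, and 37 of 41 for UTX, against 39.4%. In glycolysis the counts became 13 and 14 of 15, with Ldhb the only gene without a peak. Ldhb, Suclg1, Phgdh and Shmt2 were then the members with no peak in either list.

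Other settings changed the calls of few members. With −log10 q of at least 5, 29 members were counted for Menin (29.4% of all genes) and 33 for UTX (33.9%), Dlst being lost for Menin. With a fold of at least 5, 25 were counted for Menin (25%) and 33 for UTX (35.2%); Asns, Suclg2, Dld, Dlst and Pfkm were lost for Menin. Within 500 bp, 26 were counted for Menin (28.7%) and 31 for UTX (33.2%). Gapdh and Mthfd1 were lost from both lists, their starts lying inside the outer boundary, and Mthfd1l and Pfkm from the Menin list. Within 3 kb, 31 and 34 had a peak (35.6% and 41.6%), Aldoa being gained in both. With any base of the peak within 1 kb, the counts stayed at 30 and 33 (31.7% and 37.1%). At annotated starts alone, over genes with an entry, they were 31 and 35 (34.3% and 39.9%). With the UTX list shortened to the number of peaks of the Menin list, 33 members had a UTX peak (33.4%). Just inside the 1 kb limit were the highest peaks of Mthfd1l, 896 bp from its outer boundary for Menin and 921 bp for UTX, and just outside it were the nearest summits of Aldoa, at 1377 bp for Menin (fold 4.53) and 1814 bp for UTX.

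Promoters rich in CpG, on which MLL complexes are known to sit, had peaks more often in both lists. A gene was counted as CpG-rich if a promoter entry of 300 bases had a GC content of at least 55% and an observed over expected CpG ratio of at least 0.75. Of 39 members with an entry, 15 (38.5%) were CpG-rich, against 32.7% of all 17491 genes with one. Among CpG-rich members, 12 of 15 had a Menin peak (80%; all such genes 57.8%) and 13 of 15 a UTX peak (86.7%; all such genes 65.1%). Among the other 24 members, 16 had a Menin peak (66.7%; all such genes 19.8%) and 18 a UTX peak (75%; all such genes 23.9%). Over all genes, 54.4% of the CpG-rich and 17.2% of the others had both peaks. Over the 3 pathways pooled, the members' share was above that of all genes in each class. By pathway this failed in 1 case. CpG-rich glycolysis members had a Menin peak at 4 of 7 (57.1%), against 57.8% of all such genes. In every other pathway, class and list the members' share was the higher, in groups of 2 to 9 genes. Pgam1, Pkm, Adpgk, Pdhb, Ogdh and Psph were among the CpG-rich members with both peaks, and Gapdh, Eno1, Aco1, Cs, Shmt1, Mthfd1l and Asns among the others.

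Short motifs were searched on both strands in the 300 bases from 250 before to 50 after the outermost start that the promoter table holds for each gene, over the 39 members with an entry and all 17491 genes. At some members this start lies inside the gene's outer boundary; at Mthfd2 it is an inner start, not the one beside its counted peak. CCAAT, bound by NF-Y, was in 22 of 39 members (56.4%), against 39.2% of all genes and 42.4% of genes with a UTX MI-503 peak. CCAAT was in 6 of 15 glycolysis genes, 10 of 15 TCA and pyruvate entry genes and 6 of 9 of the serine, one-carbon and asparagine group. Among members with a UTX MI-503 peak 19 of 31 held it (61.3%), and among those without one 3 of 8 (37.5%). Those 8 include Hk1, Aldoa, Ldha and Idh2, which had a UTX peak at a start inside the gene. The split rests on the 1 kb rule at outer boundaries, and nothing is read from it. Psat1, Pdhb and Mthfd2 held it 3 times.

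GGGCGG, the SP1 box, was in 26 of 39 members (66.7%), against 46.3% of all genes. Among members with a UTX MI-503 peak it was in 77.4%, against 69.7% of all genes with such a peak. ACGTG, the HIF core, was in 12 of 39 members (30.8%), against 20.7% of all genes, and in 35.5% of members with a UTX MI-503 peak, against 28.4% of all genes with one. CACGTG, the E-box bound by MYC, contains ACGTG and was in 2 of 39 (5.13%), Ldha and Pfkm, against 7.91%. TGATGNAA was in Asns alone (2.56%), against 3.68%. CCGGAAG, the ETS core, was in 3 of 39 (7.69%), against 11.9%, and the NRF1 motif (GCGC, then any base, then TGCGC) in 4 of 39 (10.3%), against 6.66%. With a UTX MI-503 peak, the NRF1 letters were in 9.68% of members, against 13.7% of all such genes. With such a peak, the ETS letters were in 6.45% of members, against 22.6% of all such genes, and the E-box in 3.23%, against 11.7%. Over all genes, those with a UTX MI-503 peak held the SP1, HIF, NRF1, ETS and E-box letters more often than genes at large. These are matches of letters, not measured sites.

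Some peaks lay between a pair of genes. Of the 30 members with a Menin peak, 8 (26.7%) had the summit within 1 kb of another protein-coding gene's boundary, against 31.3% of all genes with such a peak. For UTX it was 8 of 33 (24.2%), against 30.6%. The genes were Pfkm with Senp1, Tpi1 with Usp5, Idh1 with Pikfyve, Dlst with Prox2, Mdh1 with Wdpcp, Mdh2 with Styxl1, Psph with Cct6a and Mthfd2 with Mob1a. At Idh1 the Menin summit lay 12 bp from Pikfyve, at Psph 7 bp from Cct6a and at Pfkm 89 bp from Senp1. These peaks cannot be assigned to the enzyme gene by position, and the share of such members was near that of genes at large.

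The other genes of the same pathways were counted by the same rule, over 63 isozymes, subunits, transporters and regulators. A Menin DMSO peak was present at 35 (55.6%) and a UTX MI-503 peak at 40 (63.5%), with both at 34 and neither at 22, and no gene had a peak in the short lists. The TCA and pyruvate group had 17 of 21 in each list. Glycolysis had 8 and 11 of 23, and the serine and one-carbon group 10 and 12 of 19.

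In glycolysis the genes with neither peak included Eno2, Hk3, Hkdc1, Ldhc, Pfkfb2, Pfkfb4, Pgam2, Pgk2 and Pklr. Pgk1, the phosphoglycerate kinase of most tissues, had both peaks at its start, with folds of 6.29 for Menin and 8.21 for UTX. The glucose transporter gene Slc2a1 also had both at its start, at 9.86 and 7.64. At Aldoc (7.31 and 17.4) and the testis form Gapdhs (8.21 and 10.9) the highest peaks of both lists lay at the end of the gene. They were 660 bp and 630 bp from it at Aldoc and 96 bp and 253 bp at Gapdhs. Aldoc also had a lower Menin peak, of 5.94, with its summit 5 bp from the start. The lactate transporter gene Slc16a1 was the only one of the 63 with a Menin peak alone, at 5.61. Eno3, Pfkfb1, Slc16a3, Slc2a3, Ahcy and Mtr had a UTX peak alone, Mtr at 13.6. Pfkfb2, Pfkfb4 and Fpgs had both peaks once starts inside the gene were counted.

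Around pyruvate, Pdk1, the kinase that switches pyruvate dehydrogenase off, had folds of 31.3 for Menin and 10.1 for UTX, while Pdk2, Pdk3 and Pdk4 had neither peak. Pdk1 and Pdp1, which act on the same complex in opposite directions, were therefore both among the highest Menin peaks of the pathway. The mitochondrial pyruvate carrier genes Mpc1 and Mpc2 had the high UTX folds of 35.0 and 26.3, beside Menin folds of 8.97 and 9.95. All subunit genes of succinate dehydrogenase had both peaks. Sdha had 4.92 and 19.7, Sdhb 4.83 and 11.5, Sdhc 11.2 and 10.9, and Sdhd 4.62 and 11.5. Me1 had neither peak.

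Of the folate and amino acid genes, Slc1a4, a transporter of serine and other neutral amino acids, had folds of 23.3 for Menin and 11.3 for UTX. Atf4, the transcription factor that induces Asns and the serine pathway, had 10.3 and 20.8. Aldh1l1, Aldh1l2, Amt, Gldc, Mthfd2l and Tyms had neither peak, as did Fpgs at its outer boundaries. Gldc and Amt belong to the glycine cleavage system, and Gcsh, which belongs to it as well, had both peaks at 6.21 and 24.1.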

How the data were processed

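ChIP-seq peaks of 4 libraries of WT-MA9 cells were used, 1 per condition, and 26 of the 30 labelled libraries were not analysed here. Per the submitters' processing notes, peaks were called with MACS2, and the notes list the builds mm10 and hg38; no version is given. The sources used here give no aligner or threshold. Names of peaks pair each library with 1 vehicle input per antibody. The deposited fold is the ratio of pileup plus 1 to local background plus 1, and the deposited p-value and q-value are on the −log10 scale. The deposited score was not used further.

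Summits were matched to 21883 protein-coding genes of RefSeq GRCm38.p6, all 41 members included, with a window of 1 kb. Pileups were recovered by solving fold and p-value together. Pileups were whole multiples of 1 step, within 0.005, at 100% of 300 Menin DMSO peaks and 300 UTX MI-503 peaks tried, 87.5% of 8 Menin MI-503 peaks and 97.7% of 217 UTX DMSO peaks. At other steps it was at most 45.3%, 46.3%, 37.5% and 52.1%. The larger of library and input is assumed scaled down, the default of MACS2. The code was tested on simulated data. Python 3.11.15, numpy 2.4.6, pandas 2.3.3, scipy 1.17.1 and matplotlib 3.10.9 were used.

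With 1 library per condition no test was run. The members and the list of 63 other pathway genes were chosen with earlier results of these data known. Values were given, by rule, for members with a peak in a short list, in neither long list or in 1 alone. They were also given for the 3 highest of each pathway in each list and for those whose call moved with the window. For some of these, Pfkm and Mthfd1 among them, the fold was given without its interval or fragments. Other pathway genes were named if they lacked both peaks or were among the 3 highest; the others named were chosen after their values were seen. Some genes that the rule takes are counted but not reported here by name. The alternatives were other q and fold minimums, windows, boundaries, list lengths and overlaps.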

Additional observations from a re-analysis of the deposited data

How the results depend on the processing

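Over the alternatives run, the number of members with a Menin DMSO peak ranged from 25 to 33, with a UTX MI-503 peak from 31 to 37, and with both from 24 to 33. All 78 alternative counts lay within 1.5 times the reported ones. That margin is wide for a small group: within 500 bp the Menin count of the serine, one-carbon and asparagine genes fell from 7 to 5 of 9. The lowest Menin count came with a fold of at least 5, and the lowest count of both with at least 50% of each peak shared. Both short lists had 0 members throughout, counts that are among the 78 and could hardly move. Counting starts inside genes was added after seeing the data and gave the highest counts. Annotated starts alone lost Pdp1 and Idh3a only for want of a promoter entry. No paired analysis was possible because each condition had 1 library and no test was run. Without absolute depth, how many weaker peaks went uncalled cannot be bounded in any list. Members with 10 to 20 fragments at the summit, Tpi1 and Suclg2 for UTX among them, have wide intervals.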

Other observations

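Several enzyme genes also carried peaks deeper inside the gene. Mthfd2 had a second pair at an inner annotated start, with folds of 4.69 for Menin DMSO (7 bp downstream of that start) and 9.88 for UTX MI-503 (37 bp downstream). Idh1 had inner peaks of 5.96 for Menin, 676 bp downstream of the nearest start, and 6.32 for UTX, 87 bp upstream of one. Pfkm had a UTX peak of 5.87 placed 34 bp downstream of an inner start.

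Others lay far from any annotated start. Dlst, whose start peak for Menin was the lowest of all members, had a higher Menin peak of 8.35 some 18967 bp downstream of its start, beside a UTX peak of 6.81 at 18909 bp. Gpi1, without a Menin peak at its boundaries, had one of 3.73 at 15492 bp inside the gene and a UTX peak of 7.00 at 15577 bp. Mthfd1 had a UTX peak of 8.21 at 38265 bp, Hk2 one of 4.86 at 10375 bp, and Aco1 a Menin peak of 5.17 at 13022 bp. These peaks entered no count above.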
